A study of Homo sapiens with 2 samples.

Results

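Cyclins, cyclin-dependent kinases (CDKs), E2F transcription factors and the proteins that restrain them were examined in Ca9-22, a human oral squamous cell carcinoma (OSCC) line. The genes were 47 cell cycle regulators chosen by symbol, and the array carried 64 probes for them, out of 58201 probes with 43317 gene names. RNA came from a culture given a lentiviral vector with DLEU1, a long noncoding RNA (DLEU1 cells), and from a culture given a control lentiviral vector (control cells). Both cultures were kept under blasticidin (6 mg/ml per the labels) for 2 weeks. There were 2 groups with 1 Cy3-labelled array each, so no test could be made and no value below carries an error between cultures. Because whole cultures were measured, fewer dividing cells and less of a transcript in each cell cannot be told apart.

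Progress through the cell cycle is driven by cyclins, which bind and activate CDKs, and is held back by small inhibitor proteins of the INK4 and CIP/KIP families. D cyclins with CDK4 and CDK6 start the phosphorylation of the RB-family pocket proteins, which releases E2F factors to switch on genes for DNA synthesis. Later, the MuvB complex with B-MYB and FOXM1 switches on the genes for mitosis, among them those of the B cyclins and CDC25 phosphatases.

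Levels are given as log2 signal minus the 75th percentile of the array, so 0 is a probe at that percentile, and a difference is the level in DLEU1 cells minus that in control cells. A gene was read from its brightest probe marked well above background on both arrays, and a change was called at 2-fold, a difference of 1 either way. Probes repeated at 10 spots gave a spot SD of the difference of 0.08 over 282 probes. The scanner software's own error of a difference was between 0.065 and 0.35 for the probes that gave the regulator values. Detected probes numbered 27731 in control cells and 27969 in DLEU1 cells, and 20246 genes were measured on both. The brightest probe of DLEU1 itself read 3.17 and 5.91, so it was 6.67-fold higher in DLEU1 cells. The other DLEU1 probes, of a different transcript, were 1.81-fold and 1.46-fold higher. All 6 squamous epithelial markers examined (KRT5, KRT14, TP63, CDH1, EPCAM and SFN) were detected on both arrays. Of these, KRT14 (2.85), KRT5 (2.10) and CDH1 (1.04) were at least 2-fold higher in DLEU1 cells, TP63 (0.96), SFN (0.00) and EPCAM (-0.78) were under 2-fold, and the summed signal of the 6, in multiples of the 75th percentile, was 873 and 1400.

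Most of the cell cycle regulators were lower in DLEU1 cells. Of the 47 genes, 44 were detected on both arrays, and 28 of these were at least 2-fold lower (63.6%), whereas 9.78% of all genes detected on both arrays were. Only CCNG2 and CDKN2B were at least 2-fold higher, which is 4.55% of the 44 against 9.18% of all genes. The other 14 differed by less than 2-fold, 9 of them downward and 5 upward. The median difference of the 44 was -1.65, beside -0.07 over all 20246 genes. CCNA1, CCND2 and CDKN1C were not well above background on either array. By role, the median difference was -2.96 over the activator E2F factors, -2.47 over the CDK phosphatases and kinases, -2.30 over the S and M cyclins and 0.10 over the INK4 inhibitors.

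**Figure D1:**
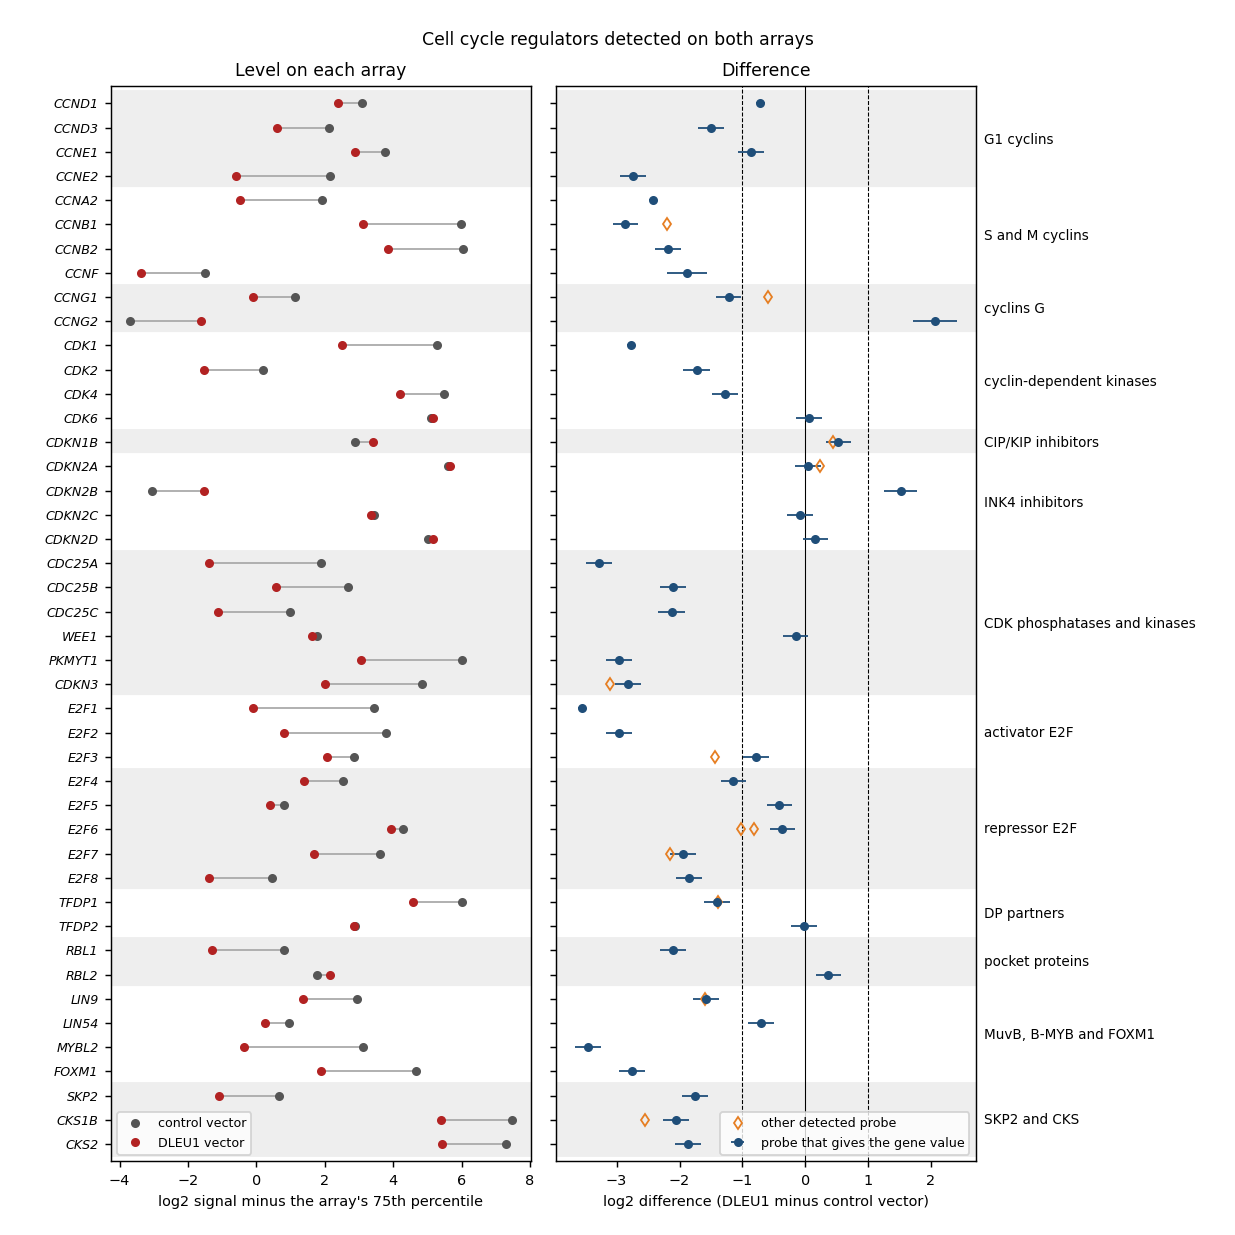
Level of each of the 44 detected regulators on the control vector (grey) and DLEU1 vector (red) array, in log2 signal minus the 75th percentile of the array, and beside it the log2 difference with the software's error as a bar. Dashed lines mark 2-fold, diamonds are further detected probes of the same gene, and positions on the left axis can be compared between arrays but not between genes. The 28 genes left of -1 include all detected S and M cyclins, and CCNG2 and CDKN2B lie right of 1.

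**Figure D2:**
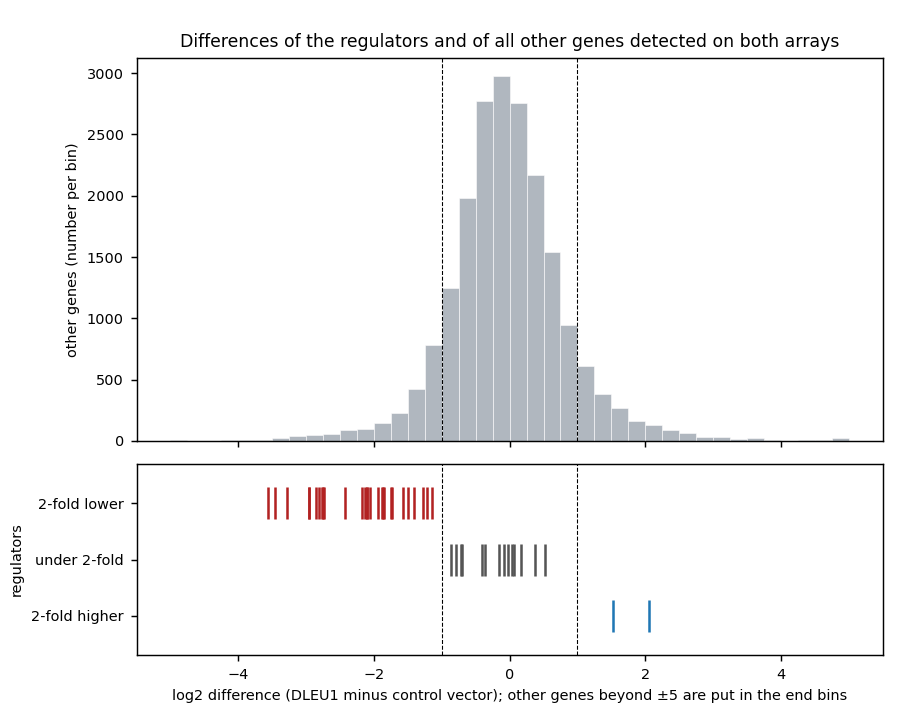
Number of other genes per bin of log2 difference (top) and the differences of the 44 regulators, 1 stroke each (bottom), with dashed lines at 2-fold. The regulators spread from -3.56 to 2.06 and most lie left of the main body of genes.

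The E2F family was read first, since its members both drive and follow the cycle. E2F1, an activator of genes for DNA synthesis, had a level of 3.44 in control cells and -0.11 in DLEU1 cells. It was 11.8-fold lower (log2 difference -3.56), which is the lowest value among the regulators, and it stood at place 19 from the lowest of 20246 genes. Its 10 spots lay between 3.40 and 3.49 on the control vector array and between -0.27 and -0.04 on the DLEU1 vector array, so the spots of the arrays did not overlap. E2F2, a further activator, went from 3.77 to 0.81, a difference of -2.96. E2F3, the remaining activator, went from 2.85 to 2.07, a difference of -0.78. The activators therefore did not move equally, and E2F3 was short of 2-fold at its brightest probe. A dimmer E2F3 probe differed by -1.43, but its spot lay in a strip of the DLEU1 vector array with many low spots. That strip is called the damaged strip below, although damage itself was not tested. E2F3 passed 2-fold as the mean of its probes (-1.11), which takes in the probe in the strip. The gene also passed with spike-in scaling (-1.24), which lowers every difference alike. Without the damaged strip its difference stayed at -0.78.

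Of the 5 factors grouped as repressors, 3 were at least 2-fold lower. E2F7 and E2F8, atypical repressors that act without a DP partner and are themselves switched on by E2F, went from 3.61 to 1.67 and from 0.46 to -1.39, with differences of -1.94 and -1.85. E2F4, which carries pocket proteins to promoters in resting cells, went from 2.53 to 1.39, a difference of -1.14. E2F5, a close relative of E2F4, went from 0.82 to 0.41 (-0.41), and E2F6, which represses without pocket proteins, from 4.29 to 3.93 (-0.36). The E2F6 probes disagreed in size as much as those of any regulator, at -0.36, -0.82 and -1.02. All 8 E2F genes were thus lower to some degree, with the larger differences in E2F1, E2F2, E2F7 and E2F8.

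The partners of E2F divided. TFDP1, the main dimerization partner, went from 6.00 to 4.59, a difference of -1.41, and its other probe gave -1.39. TFDP2, the alternative partner, was level at 2.87 and 2.85. Among the pocket proteins, RBL1, which is made in dividing cells, went from 0.80 to -1.30, a difference of -2.10. Its second probe was detected in control cells only, where it was at least 5.03-fold higher. Such a bound leaves out the software's error, here 0.80 on the log2 scale, and so is not strict. RBL2, which accumulates in resting cells, went from 1.78 to 2.14, a difference of 0.37. Of the pocket proteins, RBL1 was at least 2-fold lower and RBL2 was not.

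MYBL2 encodes B-MYB, which joins the MuvB complex to activate mitotic genes. Its level was 3.10 in control cells and -0.35 in DLEU1 cells, 11.0-fold lower (-3.46) and the second lowest value of the 44. FOXM1, the forkhead factor that follows B-MYB on the same promoters, went from 4.66 to 1.90, a difference of -2.76. The MuvB subunit LIN9 went from 2.93 to 1.35, and its probes gave -1.58 and -1.59. LIN54, the DNA-binding subunit of MuvB, went from 0.94 to 0.24, a difference of -0.70 that passed 2-fold with spike-in scaling (-1.16). The regulated activators thus differed by more than the core subunits.

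Because many of these genes moved together, the sequence before their start sites was searched for elements that E2F and MuvB are known to bind. The CCAAT box, which is not one of these, was searched as well. Promoter windows of 300 bases (250 before and 50 after the start, RefSeq, GRCh38.p14) were at hand for 37 of the 47 genes. These made 58 windows, since 13 genes had several start sites. None was at hand for CCND1, CCND2, CCNE2, CDK2, CDKN1C, E2F5, E2F8, FOXM1, PKMYT1 and WEE1. The E2F motif was taken as TTTCCCGC, TTTCGCGC, TTTGCCGC or TTTGGCGC, the cell cycle homology region (CHR) as TTTGAA or TTCGAA, and the CCAAT box as CCAAT, each on both strands and with overlaps between motifs allowed. The E2F motif was found in 7 of the 35 windows of genes at least 2-fold lower (20.0%), in 1 of the 20 windows of genes under 2-fold (5.00%) and in 3.31% of all 35116 windows. The CHR was found in 31.4%, 30.0% and 16.4% of the same 3 sets and the CCAAT box in 57.1%, 30.0% and 34.6%. Neither CCNG2 nor CDKN2B, with 1 window each, had a match to any of the 3. The same held for MYBL2 (-3.46), SKP2 (-1.75), CDK4 (-1.28) and E2F4 (-1.14), which were at least 2-fold lower. The 7 detected genes with an E2F motif differed by a median of -2.76, and the 29 without one by -1.28. For the CHR the medians were -1.88 over 13 genes with it and -1.28 over 23 without. For the CCAAT box they were -1.94 over 21 genes with it and -1.14 over 15 without. Whether the motifs had a part in the differences was not tested. Windows of 1 gene share sequence, and a match is a string of letters, not a measured binding site.

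The 150 bases before the start are shown for E2F1 and CDC25A, the lowest differences among genes with an E2F motif, and for RBL1, which like E2F1 held the motif 2 times. Matches to the E2F motif are in capitals. Their first bases lay 33 and 20 bases before the start in E2F1, 44 in CDC25A, and 26 and 16 in RBL1.
E2F1, chr20:33686386-33686535, minus strand: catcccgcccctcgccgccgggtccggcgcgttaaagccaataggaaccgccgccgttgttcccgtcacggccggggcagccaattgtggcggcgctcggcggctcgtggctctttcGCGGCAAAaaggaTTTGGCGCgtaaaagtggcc
CDC25A, chr3:48188418-48188567, minus strand: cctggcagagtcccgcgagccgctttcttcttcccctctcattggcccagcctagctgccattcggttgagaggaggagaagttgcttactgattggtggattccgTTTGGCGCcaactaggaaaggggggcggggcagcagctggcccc
RBL1, chr20:37095998-37096147, minus strand: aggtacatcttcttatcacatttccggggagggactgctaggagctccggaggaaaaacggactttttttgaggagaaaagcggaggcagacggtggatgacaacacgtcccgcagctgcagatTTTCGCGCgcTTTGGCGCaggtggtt

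A different arrangement was shared by CCNB2, CKS1B, CKS2, CDC25C and CDC25B. Each had a CHR whose first base lay 40 to 25 bases before a start site, with CCAAT boxes further upstream, and all 5 genes were lower by 1.86 to 2.18 on the log2 scale. The distance was chosen after the positions were seen. Both elements in this order were found in 5 of the 58 windows of regulators and in 107 of all 35116 windows (0.305%). Since the distance was drawn around the CHR of these regulators, the count among them describes that choice. TFDP2, which was level, had a CHR at this distance at a start site without the CCAAT box upstream. CDC25B and CDC25C, with 4 start sites each, had the arrangement at site 3 and site 4 only. CDK1 (-2.76) fell outside it, with CHR matches at -69, -13 and 9 and CCAAT boxes at -46 and -78 from a start site. From its other start site a CHR lay at -161 and a CCAAT box at -150. The sequences are shown with CHR and CCAAT matches in capitals, where ATTGG and TTCAAA are matches on the opposite strand.
CCNB2, chr15:59104996-59105145, plus strand: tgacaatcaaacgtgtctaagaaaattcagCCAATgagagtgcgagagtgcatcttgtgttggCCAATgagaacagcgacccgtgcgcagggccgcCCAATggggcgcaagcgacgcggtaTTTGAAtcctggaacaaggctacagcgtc
CKS1B, chr1:154974531-154974680, plus strand: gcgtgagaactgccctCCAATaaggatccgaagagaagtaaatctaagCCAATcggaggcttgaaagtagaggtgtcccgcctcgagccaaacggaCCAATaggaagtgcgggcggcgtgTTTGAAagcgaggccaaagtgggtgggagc
CKS2, chr9:89311045-89311194, plus strand: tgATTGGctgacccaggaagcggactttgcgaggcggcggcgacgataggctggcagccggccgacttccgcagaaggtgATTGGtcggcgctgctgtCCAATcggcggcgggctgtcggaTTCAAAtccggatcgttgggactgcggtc
CDC25C, chr5:138331805-138331954, minus strand: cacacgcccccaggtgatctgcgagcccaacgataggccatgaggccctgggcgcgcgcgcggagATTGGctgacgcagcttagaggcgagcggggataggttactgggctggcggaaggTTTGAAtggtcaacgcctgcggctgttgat
CDC25B, chr20:3796160-3796309, plus strand: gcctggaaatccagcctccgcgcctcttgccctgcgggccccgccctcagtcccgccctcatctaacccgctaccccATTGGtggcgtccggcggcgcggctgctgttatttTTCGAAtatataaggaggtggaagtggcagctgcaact

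For comparison, the same stretch is given for CDKN2B, which was higher in DLEU1 cells. It held none of the motifs, and neither did MYBL2, SKP2, CDK4 or E2F4, which were lower.
CDKN2B, chr9:22009306-22009455, minus strand: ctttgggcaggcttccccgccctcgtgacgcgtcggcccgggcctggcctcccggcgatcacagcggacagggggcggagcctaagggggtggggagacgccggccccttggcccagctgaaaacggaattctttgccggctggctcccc

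**Figure D3:**
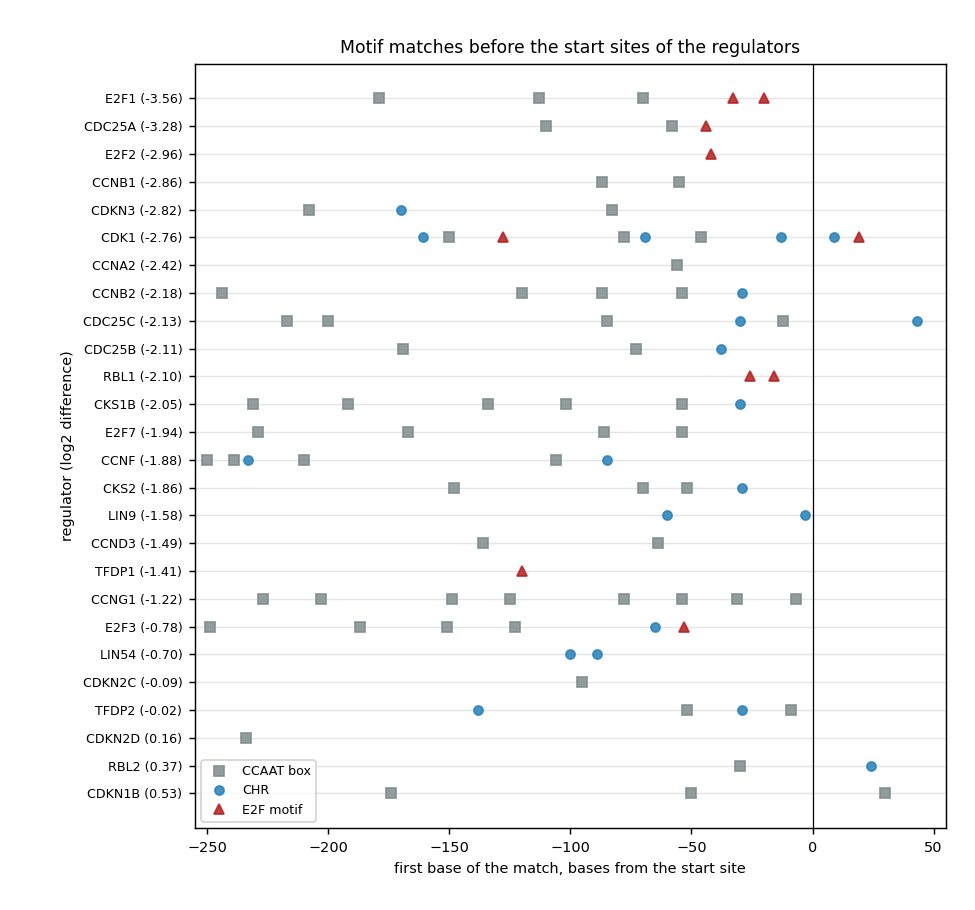
Position of the first base of each match to the E2F motif (triangles), the CHR (circles) and the CCAAT box (squares) from 250 bases before to 50 bases after the start site, in bases, for each regulator with a match, ordered by its log2 difference in parentheses. Matches at all start sites of a gene are drawn on its line. E2F motifs sit on 7 genes, 6 of them at least 2-fold lower, and the CHR of CCNB2, CDC25C, CDC25B, CKS1B, CKS2 and TFDP2 lies between -40 and -25.

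The cyclins that act from S phase to mitosis were all lower. CCNB1, the main partner of CDK1 at entry into mitosis, went from 5.97 to 3.11, 7.26-fold lower (-2.86), and a second probe gave -2.21. CCNA2, which is needed in S phase and G2, went from 1.93 to -0.49, a difference of -2.42. Over its 10 spots CCNA2 ranged from 1.79 to 2.00 in control cells and from -0.65 to -0.17 in DLEU1 cells, again with no overlap. CCNB2, the second mitotic B cyclin, went from 6.04 to 3.86 (-2.18), and CCNF, the cyclin that serves as an F-box protein, from -1.50 to -3.38 (-1.88). The CCNF probe was dim, and with the normexp background correction its difference was -0.72, short of 2-fold. CCNA1, the germ line A cyclin, was not well above background.

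The probes behind these readings and CDK1 are given, as the signal is that of RNA binding to them. The probes of CCNB1 and CDK1 cross an intron in hg19, so they match spliced RNA, and those of CCNA2 and CDK1 were printed at 10 spots each.
CCNA2 probe A_23_P58321, chr4:122739995-122740054, minus strand: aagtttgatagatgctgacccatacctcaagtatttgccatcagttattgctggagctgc
CCNB1 probe A_23_P122197, chr5:68471363-68473123, plus strand: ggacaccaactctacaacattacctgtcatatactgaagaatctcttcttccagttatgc
CDK1 probe A_23_P138507, chr10:62552004-62553650, plus strand: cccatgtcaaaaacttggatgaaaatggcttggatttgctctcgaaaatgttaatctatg

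G1 cyclins were lower too, but by unequal amounts. CCNE2, an E-type cyclin that activates CDK2 at the start of S phase, went from 2.14 to -0.60, a difference of -2.73. Its other probe was detected in control cells only, at least 12.4-fold higher there, although that spot lay in the damaged strip. CCNE1, the other E-type cyclin, went from 3.75 to 2.88, a difference of -0.87 and short of 2-fold. CCND3 went from 2.11 to 0.62, a difference of -1.49. CCND1, the D cyclin most often amplified in squamous carcinomas, went from 3.08 to 2.37, a difference of -0.71. The spots of CCND1 lay from 3.03 to 3.12 and from 2.20 to 2.48 over 9 spots unflagged on both arrays, so the arrays were apart although the fold was only 1.64. Some of the CCND1 spots lay in the damaged strip. With spike-in scaling, which lowers every difference alike, CCND1 (-1.17) and CCNE1 (-1.33) passed 2-fold.

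**Figure D4:**
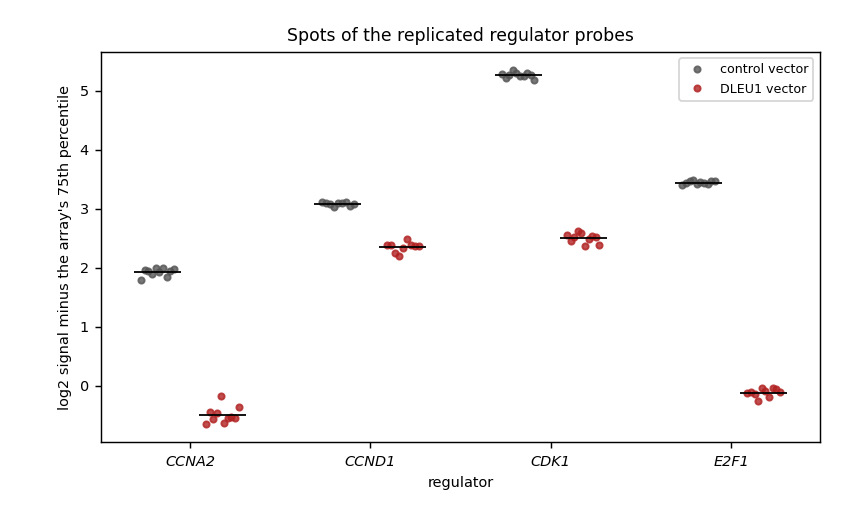
Log2 signal minus the 75th percentile of the array at each spot of the 4 regulator probes that were printed repeatedly, on the control vector array (grey) and the DLEU1 vector array (red), with the mean as a line. Spots are repeats within an array and not replicate cultures. In all 4 genes the spots of the arrays are apart, by least in CCND1.

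The G cyclins, which do not drive the cycle, went opposite ways. CCNG1, a target of the tumour suppressor p53, went from 1.13 to -0.09, a difference of -1.22, while its second probe gave -0.60 and the mean of both was short of 2-fold (-0.91). CCNG2, a cyclin that accumulates in cells leaving the cycle, went from -3.69 to -1.63, 4.16-fold higher (2.06). A further CCNG2 probe was detected in DLEU1 cells only and was at least 6.27-fold higher there (software error of the log2 difference 0.47). The last, also detected only there, was at least 1.96-fold higher (error 0.53). The CCNG2 signal was dim on the control vector array, and with normexp the difference was 0.85, short of 2-fold.

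Among the kinases, CDK1, which drives mitosis, went from 5.27 to 2.50, 6.80-fold lower (-2.76). Its 10 spots gave an SD of the difference of 0.045. A probe for a further CDK1 transcript was detected in control cells only, at least 2.90-fold higher there. CDK2, the partner of the E and A cyclins, went from 0.19 to -1.54 (-1.73), and CDK4, a partner of the D cyclins, from 5.47 to 4.19 (-1.28). CDK6, the alternative partner of the D cyclins, stayed at 5.09 and 5.15, a difference of 0.06 that turned to -0.05 with median scaling and -0.40 with spike-in scaling. CDK4 and CDK6 thus differed from each other in these cultures, with CDK4 lower by 2.43-fold and CDK6 within the spot SD.

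None of the 5 INK4 and CIP/KIP inhibitor genes detected was at least 2-fold lower. Over all genes detected on both arrays the share was 9.78%, so none among 5 is near that share. CDKN2B, an INK4 inhibitor of CDK4 and CDK6 that responds to TGF-beta, went from -3.06 to -1.54, 2.86-fold higher (1.52). It was dim on both arrays, and with normexp the difference was 0.77, short of 2-fold. CDKN2A, its neighbour on chromosome 9 and often lost in oral carcinomas, was bright and level at 5.61 and 5.66, and a probe for another CDKN2A transcript differed by 0.24. CDKN2C went from 3.42 to 3.34 and CDKN2D from 5.00 to 5.17. CDKN1B, a CIP/KIP inhibitor that blocks CDK2 complexes, went from 2.89 to 3.41, a difference of 0.53, and its other probe gave 0.44. The small differences of CDKN2A, CDKN2C and CDKN2D changed sign under some scalings.

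The enzymes that set or remove phosphates on CDKs were next compared. CDC25A, the phosphatase that activates CDK2 and CDK1, went from 1.90 to -1.38, 9.70-fold lower (-3.28), the third lowest of the regulators. CDC25B went from 2.66 to 0.56 (-2.11) and CDC25C from 0.99 to -1.14 (-2.13), both phosphatases acting on CDK1 before mitosis. PKMYT1, the membrane-bound kinase that opposes CDC25 on CDK1, went from 6.00 to 3.05, a difference of -2.96. WEE1, the nuclear kinase with the same role, was at 1.76 and 1.61, a difference of -0.15. CDKN3, a phosphatase that removes the activating phosphate of CDKs, went from 4.83 to 2.02 (-2.82) and its second probe gave -3.10. Of the kinases opposing CDC25, PKMYT1 was past 2-fold and WEE1 was not.

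SKP2, the F-box protein that marks CDKN1B for destruction, went from 0.67 to -1.09, a difference of -1.75. The SKP2 probe lay in the damaged strip and no other was on the array. Its cofactor CKS1B went from 7.46 to 5.41 (-2.05), with a second probe at -2.56, and the related CKS2, a small CDK-binding protein, from 7.28 to 5.42 (-1.86). All 3 were at least 2-fold lower, while CDKN1B was slightly higher.

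Probes of the same gene went the same way. In all 11 regulators with several probes detected on both arrays, the differences of a gene had one sign, with a median range of 0.29 and a largest range of 0.65 on the log2 scale. Counted as probes, 36 of 56 regulator probes detected on both arrays were at least 2-fold lower and 2 were higher, where 9.78% and 8.98% of all probes detected on both arrays were. The damaged strip, a rectangle on the array of DLEU1 cells, held spots of 4 regulator probes. Of the spots there that were lit in control cells, 27.1% were 2-fold lower, and elsewhere 12.6%. The rectangle was drawn from a map of the low spots, so these shares describe how it was chosen. Without these probes 27 of 42 regulators were at least 2-fold lower.

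A further 33 genes of the same pathway, such as the machinery that degrades cyclins, were listed by their roles, with earlier results of these data known. Of 32 detected on both arrays, 13 were at least 2-fold lower and 1 was higher, with a median difference of -0.56, against 9.78% and 9.18% of all genes. Without the damaged strip 11 of 30 were lower. The lowest was MYBL1, a relative of B-MYB, which went from 3.15 to -0.17 (-3.32). It was followed by CDT1, which loads the replicative helicase (-3.20), the mitotic kinase AURKA (-3.02), CDC20, an activator of the anaphase-promoting complex (-2.71), the mitotic kinase PLK1 (-2.69), FBXO5, an inhibitor of that complex (-2.46), and UBE2C, its ubiquitin-conjugating enzyme (-2.29). GMNN, the inhibitor of CDT1 (-1.55), FBXW7, which marks cyclin E for destruction (-1.80), CABLES1 (-1.48), the MuvB subunit LIN52 (-1.28), the mitotic kinase MASTL (-1.21) and TFDP3 (-1.92), a gene close in sequence to TFDP1, made up the rest. RB1, the founding pocket protein gene, was at 4.08 and 3.71, a difference of -0.37. The gene at least 2-fold higher was CDKN1A, a CIP/KIP inhibitor induced by p53 and at exit from the cycle, which went from -1.52 to 1.01, 5.77-fold higher (2.53).

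Markers of other cell states were read on the same arrays. Of 10 suprabasal keratinocyte markers, 8 were well above background in control cells and 9 in DLEU1 cells, and 7 of the 8 detected on both arrays were at least 2-fold higher, from TGM1 (2.49) to SPRR3 (9.88). Their summed signal, in multiples of the 75th percentile of the array, was 102 in control cells and 1113 in DLEU1 cells, and DSG1 was not well above background on either. Of 6 fibroblast markers, 2 were detected in control cells, and 3 in DLEU1 cells, with summed signals of 1.55 and 22.4. COL1A1 was higher by 3.99, and PDGFRB, the other one detected on both arrays, differed by -0.33. LUM was detected in DLEU1 cells only, while COL1A2, COL3A1 and DCN were not well above background on either array. Of 4 endothelial markers, 2 were detected on each array, VWF with a difference of 3.70 and CDH5 with -0.59. PECAM1 and KDR were not well above background, and the summed signals were 0.460 and 2.76. Of 3 leukocyte markers with a probe, 2 were detected on each array, with summed signals of 0.992 and 0.961. The part of these and the squamous epithelial markers in the lower level of the cell cycle regulators was not tested.

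**Figure D5:**
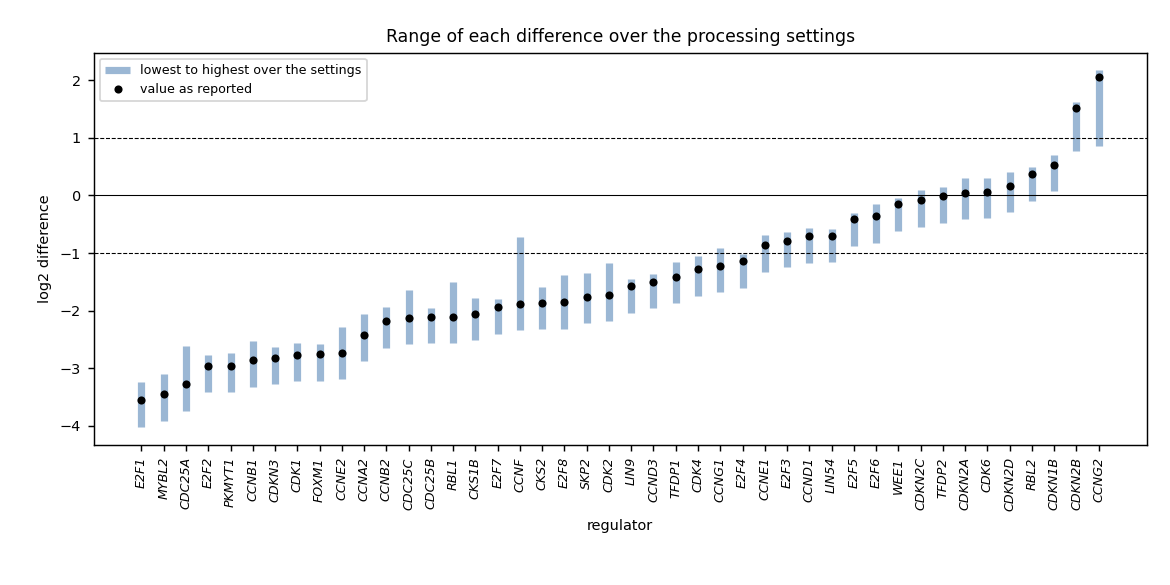
Log2 difference of each detected regulator as reported (points) and its lowest to highest value (bars) over 15 settings of scaling, background correction, filters, probe choice and left-out probes, with dashed lines at 2-fold. Of the 28 lower genes, all but CCNF and CCNG1 stay below -1 in every setting that gave a value, and both higher genes reach below 1.

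Across all settings that kept the 2-fold threshold, 26 of the 28 lower genes remained at least 2-fold lower wherever they had a value, and no gene past 2-fold changed sign. Neither of the higher genes kept its call with normexp, and both were left out when probes with a signal under 100 on either array were dropped.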

How the data were processed

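Gene expression was measured with 1 Agilent SurePrint G3 Human GE array per vector, both on 1 slide and in 1 scan. The deposited intensity of each spot came from Agilent Feature Extraction (10.7 per the labels, 10.7.3.1 per the file headers), with local background subtracted, the signal detrended over the array and dim spots given a surrogate value. The authors used GeneSpring, and neither deposited intensity table was normalized between arrays. The series values were the same intensity, rounded (within 0.497%).

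Control spots (62976 spots held 60901 others) and outlier spots (84 and 103) were left out, log2 intensity was averaged over the spots of each probe, and each array's 75th percentile over probes (7.92 and 7.88) was taken off. No spot was saturated (0). A probe detected on 1 array only was given as at least N-fold, against its own signal on the dim array or, where higher, the lowest signal of any detected probe. That limit is a lenient one and the software's error was not taken off, so these folds are not strict bounds. Precision was limited by the number of arrays. Groups came from the vector labels. The alternatives were other scalings (median, detected probes, quantile, loess with span 0.3, none, and 8 spike-in probes set equal), normexp (offset 50), the series values, other filters, probe rules and thresholds (1.5 and 3), and leaving out the damaged strip. Every regulator is named, with its values where it was detected, and of the other pathway genes those past 2-fold and RB1. More probes of a gene were given than the rule asked for. The CHR distance was chosen after positions were seen. The members, lists and settings were chosen with earlier results of these data known. The calculation was tested on simulated data. Tools were Python 3.11.15, pandas 2.3.3, numpy 2.4.6, R 4.3.3 and limma 3.58.1.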

Additional observations from a re-analysis of the deposited data

How the results depend on the processing

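Where the 2-fold threshold was kept, the number of regulators at least 2-fold lower, 28 in the main run, lay between 23 and 32. The 23 were of the 37 genes that reached a signal of 100, and the 32 came with spike-in scaling. At other thresholds, 32 were lower by 1.5-fold and 22 by 3-fold. Both higher regulators lost their call with normexp (0 called), and none had a signal of 100 on each array (0 called), while 1 was past 3-fold. The 1 higher gene of the other pathway genes was also below that signal, leaving 0. The median of -1.65 became -1.77 when scaled by the median, -1.54 when the percentile came from detected probes, -1.57 by quantiles, -1.52 by loess, -2.11 by spike-ins and -1.36 by normexp. It was -1.49 over the 47 genes left in without a dim filter and -1.49 over the 37 that reached the signal of 100. The median of all genes moved by -0.46 under spike-in scaling, by -0.11 under median scaling, and by 0.11 when detected probes set the percentile or no dim filter was used. Of 607 regulator values recomputed, 392 stayed within the spot SD of the main value and 215 did not. Many of the 392 could not move, as most filter settings gave back the same probe and the series values were the same intensity, rounded. Without scaling, every gene moved by -0.04, which is within the spot SD. The counts therefore do not measure how firm the values are. Signs turned for 12 values, all in CDK6, CDKN2A, CDKN2C, CDKN2D, TFDP2 and RBL2, which were under 2-fold. Leaving out saturated probes tested nothing, as there were none. No paired analysis was possible because each group had 1 array. The cause of the changes under other scalings and normexp was not tested. Dim probes such as those of CCNF, CCNG2 and CDKN2B are limited by their signal over background.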
